A study of Mus musculus with 6 samples.

Results

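The RNAs described here are annotated non-coding transcripts that were clearly detected in mouse erythroid cells. They are the array's targets with a RefSeq non-coding accession (prefix NR_) whose probe the scanner software called well above background on all 6 arrays, without the small nucleolar RNA host genes (Snhg names and Gas5) and without names ending in Rik. Of 748 names with such an accession, 359 were left out by name, and 136 of the other 389 met the rule, each represented by its probe with the highest mean processed signal. A further 78 had a best probe above background on 5 arrays, 111 on 1 to 4 arrays and 64 on 0 arrays. The members were selected on the detection flags of these same 6 arrays, so their being detected is not a result, whereas the difference between the groups was not used to choose them.

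The cells were G1E-ER-GATA-1, an erythroid progenitor line without endogenous GATA-1 that expresses GATA-1 joined to an estrogen receptor domain, so that the hormone sets off red cell maturation. One group of 3 arrays came from cells given siRNA specific for SetD8 and the other group of 3 from cells given non-targeting (control) siRNA. In both groups the siRNA was transfected at 0 h and again at 24 h, β-estradiol was present for 24 h, and the RNA collected at 48 h was hybridised as Cy3-labelled cRNA to 1-colour arrays. SetD8 (gene Setd8) is the methyltransferase that places a single methyl group on lysine 20 of histone H4. Whether the 3 arrays of a group stem from separate cultures is not stated, so each p-value reflects array-to-array spread that may be technical.

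RNAs that are not translated work in several ways. Ribosomal, spliceosomal and other structural RNAs are parts of enzymes and machines. Long non-coding RNAs can build nuclear bodies, as Neat1 does for paraspeckles, silence neighbouring imprinted genes, as Kcnq1ot1 and Airn do, or serve as precursors of microRNAs, as Mir17hg and Dleu2 do. Transcribed pseudogenes are copies of protein-coding genes, often so close in sequence that a short probe can bind the RNA of both. Labelling kits of this kind usually prime from the poly(A) tail, which most structural RNAs lack.

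The share of spots well above background ran from 60.3% to 68.6% on the SetD8 arrays and from 40.2% to 82.5% on the control arrays, and 0 spots were saturated. SetD8 arrays 1 and 2 shared a slide with control array 1, SetD8 array 3 shared one with control array 3, and control array 2, which had the lowest share, was alone on its slide. All 10 erythroid markers examined (such as Alas2, Klf1 and Ahsp) were above background on every array, and their log2 differences ran from −1.19 to 1.198 with a median of 0.01 and 0 calls. Among markers of other cells, Ppbp (platelets) and Ms4a2 (mast cells) were above background on no array, and Vim was the only marker to pass the test (log2 difference 1.10, limma adjusted p = 0.0229). The 4 measured megakaryocyte markers had a median difference of 0.56 and the 3 measured granulocyte and macrophage markers one of 0.73, all positive with 0 calls, and their part in the results was not tested. Precision is limited by there being 3 arrays a group.

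The siRNA target was lower on every SetD8 array. On its brighter probe Setd8 had log2 signals of 9.58, 9.26 and 9.24 on the SetD8 arrays and 11.49, 11.57 and 11.23 on the control arrays, after normexp background correction (offset 50) and quantile normalization. The difference was −2.07 ± 0.16 (SE), with a limma adjusted p of 0.0169 over 22126 rows. It was −2.24 after scaling to the 75th percentile of the processed signal (adjusted p = 0.934) and −2.04 with slide as a block (adjusted p = 0.0925). Control array 2 was alone on its slide, so with slide as a block it does not enter the difference. The second Setd8 probe was 2.18-fold lower. All log2 values below are normexp and quantile normalized unless the 75th percentile scaling is named, and all differences are SetD8 siRNA minus control siRNA. Because of the offset, differences of dim probes are understated.

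Checked against current RefSeq annotation (GRCm38.p6 tables, used for names), the label non-coding covered several kinds of locus. Of the 136, 130 matched, 120 of them by accession, 5 by symbol and 5 by synonym. By locus type, 56 are transcribed pseudogenes, 50 are long non-coding RNAs, 15 are non-coding transcripts of loci now listed as protein-coding, 11 are structural RNAs, 2 of them (Rn18s and LOC790956) placed there by name without a match, and the other 4 unmatched names have no type. At the dim edge of the rule the 3 lowest mean processed signals inside it were 33.5 (Zfhx2as), 34.5 (Gm10389) and 37.1 (Peg13), and the 3 highest outside it, on 5 arrays, were 707 (Gm10818), 338 (Mirg) and 314 (Pldi). Detection on every array, and not brightness, therefore sets this edge.

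Probe sequences of the RNAs the results turn on are printed next, because each is the only stretch of its RNA that was measured. They are the array's own 60-base probes, read 5′ to 3′, with mm9 positions from the files. Pvt1 lies on chr15:62081020-62081079, plus strand. Mir17hg lies on chr14:115445828-115445887, plus strand. Gm13315 lies on chr2:14643230-14643289, plus strand, and Gm5176 on chr10:110938208-110938267, plus strand. Zfp672 lies on chr11:58133307-58133366, minus strand, and Pisd-ps1 on chr11:3031786-3031845, plus strand.
Pvt1: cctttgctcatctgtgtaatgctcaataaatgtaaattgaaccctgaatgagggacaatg
Mir17hg: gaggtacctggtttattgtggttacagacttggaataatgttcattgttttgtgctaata
Gm13315: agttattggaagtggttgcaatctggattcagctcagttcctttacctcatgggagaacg
Gm5176: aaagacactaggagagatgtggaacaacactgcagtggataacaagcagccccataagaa
Zfp672: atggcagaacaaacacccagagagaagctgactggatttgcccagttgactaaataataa
Pisd-ps1: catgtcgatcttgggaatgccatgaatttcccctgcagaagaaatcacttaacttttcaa

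No member passed the test when every row of the array was tested together. After normexp and quantile normalization limma (adjusted p under 0.05) called 0 of the 136 in either direction, against 0.515% of all 22126 rows. Those were 104 higher rows (0.47%) and 10 lower rows (0.0452%). The lowest adjusted p of a member was 0.0693. With the 75th percentile scaling it called 0 members and 0% of all rows, and no member had an adjusted p below 0.934. Unadjusted p was under 0.05 for 19 members after normexp and quantile normalization, against 11.6% of all rows, and for 3 members at the 75th percentile scaling, against 2.37%. In these bulk samples fewer cells of a type and less RNA per cell cannot be told apart.

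The differences were mostly small. Their median was −0.07, with 81 of 136 below 0. It turned to 0.0076 with slide as a block and 0.010 without control array 2, and both leave that array out of the difference. The median of −0.07 stood beside 0.03 over all rows. Over the 15162 of them whose probe was above background on all 6 arrays it was −0.01. The difference was under 0.5 in size for 117 members and over 1 for 2, Gm13315 and Pvt1. The groups did not overlap for 29 members, 11 higher and 18 lower, and for 19.2% of all rows (10.7% higher, 8.51% lower). The members' share of 21.3% lay near that background, and 25% of rows on all 6 arrays had groups that did not overlap. At the 75th percentile scaling 14 members had groups that did not overlap (5 higher, 9 lower), against 7.19% of all rows (4.71% higher, 2.47% lower), and 117 members had the same sign in both scalings. The 75th percentile scaling put the median of the members at −0.14, that of all rows at 0.12 and that of rows on all 6 arrays at −0.10.

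**Figure D1:**
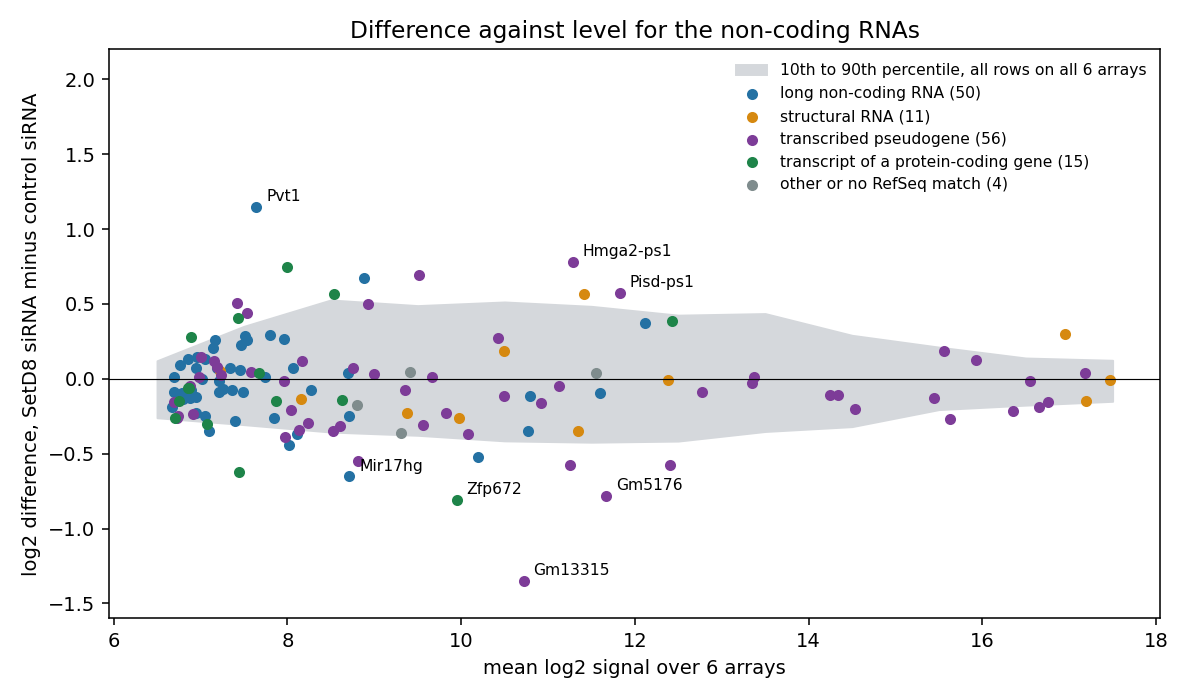
Log2 difference, SetD8 siRNA minus control siRNA, of each of the 136 non-coding RNAs (points, coloured by locus type) against its mean log2 signal over 6 arrays. The grey band holds the 10th to 90th percentile of the rows well above background on all 6 arrays in steps of 1 log2 unit; 103 of the 136 lie inside it, and Pvt1 above and Gm13315 below it are the farthest out.

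Limiting the fit to the 15430 rows detected above background on all 6 arrays gave 5 member calls. Pvt1 (adjusted p = 0.0377) and Pisd-ps1 (0.0484) were higher and Gm13315 (0.0269), Gm5176 (0.0269) and Zfp672 (0.0338) were lower, beside 2.72% of those rows called (2.03% higher, 0.687% lower). With slide as a block in that fit only Gm13315 kept its call (adjusted p = 0.0384), beside 95 of the 15430 rows. Without any 1 of control array 1, SetD8 array 1 and SetD8 array 2, that fit called 0 members. It then called 32, 37 and 5 of the 15430 rows, in that order. Without SetD8 array 3 it called 1 member, without control array 2 it called 2 and without control array 3 it called 9. Beside these it called 64, 164 and 905 of the 15430 rows.

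Other fits called more members together with more rows. Trend and robust moderation called 2 higher (Pisd-ps1, Hmga2-ps1) and 5 lower (Gm13315, Gm5176, Zfp672, Vmn2r-ps14, Hmgb1-rs17), beside 3.31% of all rows (2.16% higher, 1.15% lower). Array weights called 12 higher and 17 lower, beside 21.3% of all rows (10.5% higher, 10.8% lower). At the 75th percentile scaling array weights called 22 higher and 32 lower, beside 36.1% of all rows (15.7% higher, 20.5% lower). That scaling limited to rows on all 6 arrays called Pvt1 higher and Gm13315 lower, beside 0.661% of rows (0.596% higher, 0.0648% lower), and with slide as a block it called Pvt1, beside 0.479% of all rows.

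**Figure D2:**
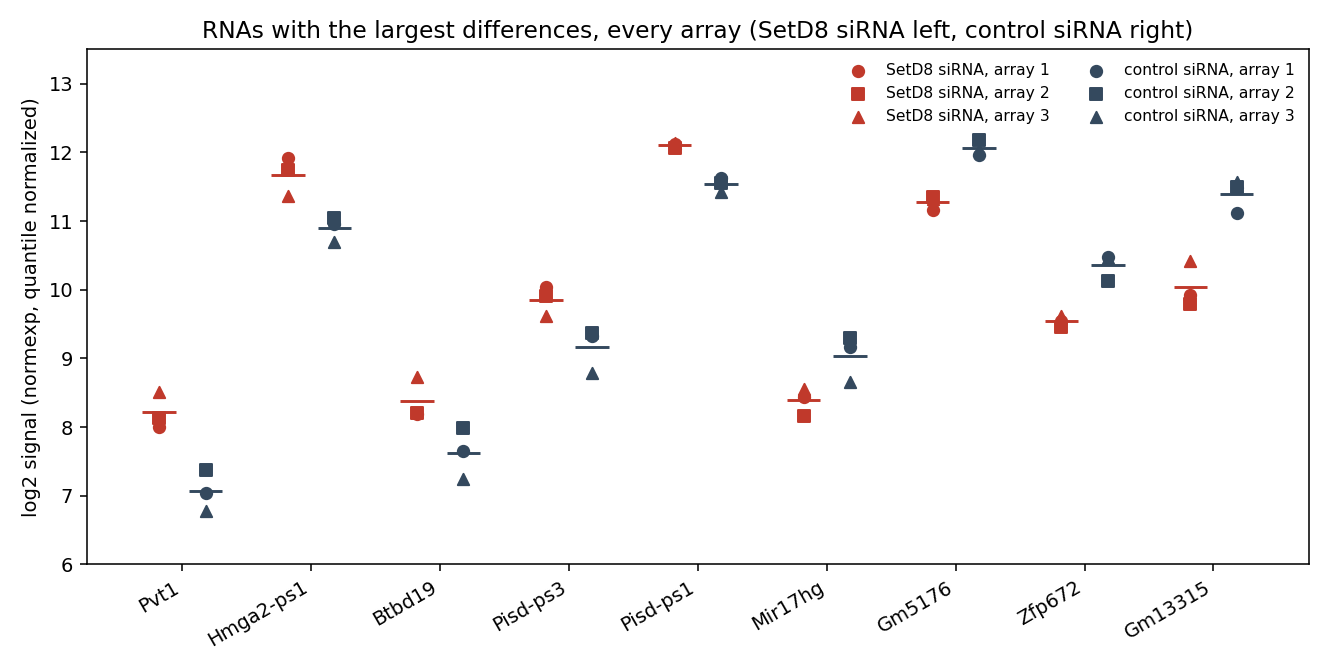
Log2 signal (normexp, quantile normalized) of 9 RNAs on each array, SetD8 siRNA to the left of control siRNA for each RNA; marker shapes are array numbers and short lines are group means of 3 arrays. For all 9 the arrays of the 2 groups do not overlap. All but Pisd-ps1 were chosen as the largest differences among RNAs whose groups do not overlap, so that is not a result. Pvt1 is 8.01 to 8.52 on SetD8 arrays and 6.78 to 7.38 on control arrays.

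Of the structural RNAs, which make up the ribosome, the spliceosome and RNA-processing or telomere enzymes, 0 of 11 had an unadjusted p under 0.05, and their median difference was −0.01, or −0.21 with the 75th percentile scaling. The 18S ribosomal RNA (Rn18s), among the brightest members, had log2 signals of 17.37, 17.53 and 17.51 on the SetD8 arrays and 17.39, 17.58 and 17.47 on the control arrays. Its difference was −0.01 ± 0.12 (SE, adjusted p = 0.991), and the arrays of the groups interleaved. The 28S ribosomal RNA (28s) had 16.83, 17.15 and 17.33 on the SetD8 arrays and 16.84, 16.59 and 16.98 on the control arrays, a difference of 0.30 ± 0.18 (adjusted p = 0.644). Rn4.5s, a short rodent RNA, stood at 17.09, 17.08 and 17.18 on the SetD8 arrays and 17.29, 17.30 and 17.20 on the control arrays. Its groups did not overlap, but the difference of −0.15 ± 0.11 had an adjusted p of 0.735.

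Small RNAs of the spliceosome and nucleolus had differences at or below 0. Differences were −0.01 for U1 (Rnu1b6), −0.23 for U2 (Rnu2), −0.26 for U12 (Rnu12), which serves the minor spliceosome, and −0.35 for U3 (Rnu3b1), which guides ribosomal RNA cleavage. None of these 4 passed, with adjusted p from 0.484 to 0.996. The RNA of telomerase, Terc, had 7.02, 7.38 and 7.35 on the SetD8 arrays and 7.10, 7.55 and 6.93 on the control arrays, a difference of 0.05 ± 0.20. Rmrp, the RNA of the RNase MRP enzyme, had 10.07, 10.93 and 10.76 on the SetD8 arrays and 10.32, 10.23 and 10.66 on the control arrays, a difference of 0.18 ± 0.26. Both sets of arrays overlapped (adjusted p = 0.962 for Terc and 0.871 for Rmrp). The 5.8S ribosomal RNA (LOC790956), chosen here after its values were seen, had the widest spread of these RNAs, with 11.02, 12.48 and 11.58 on the SetD8 arrays and 11.51, 10.12 and 11.74 on the control arrays.

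Protein partners of structural RNAs gave 0 calls. The 7SK and signal recognition particle RNAs themselves are not described here. Of 9 measured protein subunits of RNase P and MRP 5 had a negative difference (median −0.00), of 7 telomerase proteins 5 did (median −0.15), and of 7 proteins of the 7SK particle, which holds back the elongation kinase CDK9, 5 did (median −0.17). Of 8 signal recognition particle proteins 7 were negative (median −0.20). None of them passed, and the number with an unadjusted p under 0.05 was 0, 2, 1 and 1 in that order, beside 11.6% of all rows.

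Among the 50 long non-coding RNAs 4 (8%) had an unadjusted p under 0.05 and the groups of 5 did not overlap (10%, against 25% of rows on all 6 arrays). That background depends on brightness. It was 12.7% for rows on all 6 arrays with a mean processed signal under 500 and 37.6% for brighter ones. Pvt1, a long non-coding RNA next to the Myc oncogene, had the largest positive difference of the 136. Its log2 signal was 8.01, 8.13 and 8.52 on the SetD8 arrays and 7.05, 7.38 and 6.78 on the control arrays. Every SetD8 array was above every control array, and the difference was 1.15 ± 0.21 (SE), or 2.22-fold higher, with an adjusted p of 0.0899 over all rows. It was 1.02 within slide 1, 1.73 within slide 3, 1.33 with slide as a block (adjusted p = 0.165), and 1.77 after the 75th percentile scaling. At the 75th percentile scaling its call appeared with slide as a block (adjusted p = 0.0468) and without control array 2 (adjusted p = 0.0344). Of the 22126 rows those fits called 106 and 114.

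Other probes at the Pvt1 locus had smaller differences of the same sign. A second Pvt1 probe above background on all arrays stood at 0.42. Of 13 probes for a genomic region that holds the Pvt1 probe on the same strand, 4 were above background on all 6 arrays, and their differences ran from 0.09 to 0.77. Myc, the neighbouring gene, had 9.65, 8.88 and 9.02 on the SetD8 arrays and 9.81, 9.82 and 9.15 on the control arrays. Its difference was −0.41 (adjusted p = 0.688), its groups overlapped, and it was set beside Pvt1 after its values were seen.

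Mir17hg is the host transcript of the miR-17 to miR-92 cluster, whose microRNAs favour proliferation and survival. Its log2 signal was 8.44, 8.16 and 8.56 on the SetD8 arrays and 9.16, 9.30 and 8.66 on the control arrays. Control array 3 lay just above the highest SetD8 array, so the groups did not overlap, and the difference was −0.65 ± 0.21 (1.57-fold lower, adjusted p = 0.276). It was −0.86 within slide 1 and −0.10 within slide 3. Of 6 region probes over the locus that were above background on all arrays 4 were negative, and they ran from −0.67, for a probe of identical sequence, to 0.40. The array measured the host transcript and not the mature microRNAs.

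The mature products of the cluster are shown because their seeds, bases 2 to 8 in capitals, decide which messenger RNAs each can pair with. The sequences are RefSeq's (GRCm38.p6), and these 6 hold 4 different seeds: miR-17-5p and miR-20a-5p share 1, as do miR-19a-3p and miR-19b-3p.
miR-17-5p: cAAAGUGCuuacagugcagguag
miR-20a-5p: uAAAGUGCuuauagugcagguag
miR-18a-5p: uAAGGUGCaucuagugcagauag
miR-19a-3p: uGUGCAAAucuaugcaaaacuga
miR-19b-3p: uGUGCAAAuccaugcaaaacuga
miR-92a-3p: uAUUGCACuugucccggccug

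Dleu2, the host transcript of miR-15a and miR-16-1, had 7.51, 7.29 and 7.54 on the SetD8 arrays and 7.71, 7.79 and 7.09 on the control arrays. The groups overlapped, and the difference was −0.09 ± 0.21 (adjusted p = 0.937). Of 10 region probes over it on all arrays 10 were negative, from −0.49 to −0.07. Of 10 measured microRNA processing proteins 0 passed and 7 were negative (median −0.15). The export receptor Xpo5 stood at −0.34 and Prkra, a Dicer partner, at 0.72, with adjusted p of 0.322 and 0.318.

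The nuclear RNAs Neat1 and Malat1 are neighbours on chromosome 19 with opposite signs here. Neat1, the scaffold of paraspeckles, had 12.62, 12.34 and 11.94 on the SetD8 arrays and 12.43, 12.11 and 11.24 on the control arrays, a difference of 0.37 ± 0.34 (adjusted p = 0.785). In both groups array 3 was the lowest, and the difference was 0.04 within slide 1 and 0.70 within slide 3. Malat1, an RNA of nuclear speckles, had 10.48, 10.29 and 11.00 on the SetD8 arrays and 10.95, 10.96 and 10.92 on the control arrays, a difference of −0.35 ± 0.20 (adjusted p = 0.597). SetD8 array 3 alone exceeded the controls, and the difference was −0.56 within slide 1 and 0.08 within slide 3. Tug1, a widely expressed RNA, had 9.02, 8.36 and 8.76 on the SetD8 arrays and 8.70, 9.06 and 8.27 on the control arrays, a difference of 0.04 ± 0.26.

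Paraspeckle proteins had differences of 1 sign without a call. Of 10 measured 10 were negative, with a median of −0.37, a range from −0.46 to −0.01, and 5 at an unadjusted p under 0.05. Such a p was found for 11.6% of all rows and 15.8% of rows on all 6 arrays. Of the core proteins, Sfpq stood at −0.45 (adjusted p = 0.265), Pspc1 at −0.28 and Nono at −0.01 (0.01 with slide as a block). Of all 22126 rows 9896 were negative, and of the 15162 on all 6 arrays, where all 10 proteins were detected, 7824 were.

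The imprinted RNAs varied between control arrays more than between the groups. Kcnq1ot1, which silences a cluster on the paternal chromosome, had 8.61, 8.33 and 8.81 on the SetD8 arrays and 9.10, 9.18 and 8.22 on the control arrays. The difference was −0.25 ± 0.29 (adjusted p = 0.836), with −0.63 within slide 1 and 0.59 within slide 3. Peg13, Airn and Nespas, named after their values were seen, had differences of −0.19, −0.12 and −0.35 with overlapping groups. Igf2r, the sense partner of Airn, stood at 0.18, and Gnas, that of Nespas, at −0.12. Of 10 antisense and opposite-strand pairs, 9 had a row for the sense gene and 0 of these sense genes passed.

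**Figure D3:**
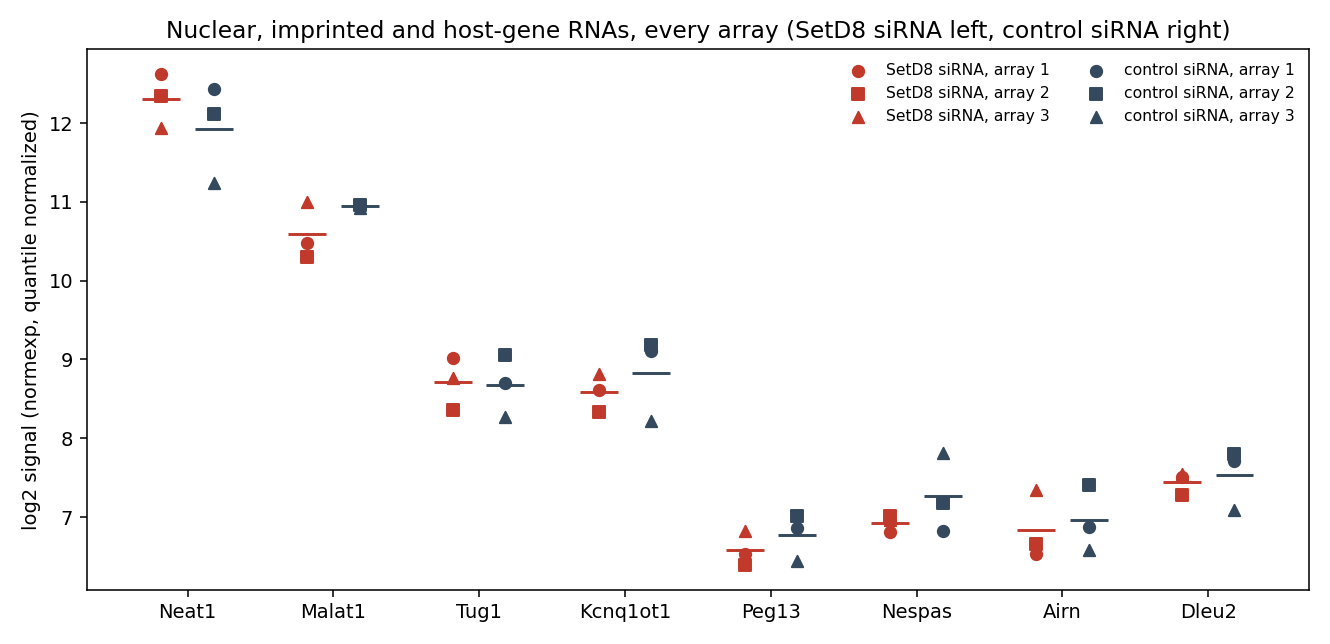
Log2 signal (normexp, quantile normalized) of 8 long non-coding RNAs on each array, SetD8 siRNA to the left of control siRNA; marker shapes are array numbers and short lines are group means. The groups overlap for all 8, and control array 3 is the lowest control for 7 of them, Neat1 at 11.24 and Kcnq1ot1 at 8.22 included.

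As a class the long non-coding RNAs varied with single arrays. Taking each array minus the mean of the other 2 of its group, their median was −0.09, −0.06 and 0.12 on SetD8 arrays 1, 2 and 3 and −0.02, 0.32 and −0.28 on control arrays 1, 2 and 3. Control array 2 was the highest control for 37 of 50 and control array 3 the lowest for 32. Over the rows on all 6 arrays the same medians were 0.11 for control array 2 and −0.14 for control array 3. The pattern was not particular to this class, since the 15 transcripts of protein-coding loci stood at 0.25 and −0.41 there. The class median difference was −0.07 with all arrays and 0.05 with the 75th percentile scaling. It was 0.08 with slide as a block and 0.08 without control array 2, and both leave that array out of the difference. The sign of the class median was therefore not stable.

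**Figure D4:**
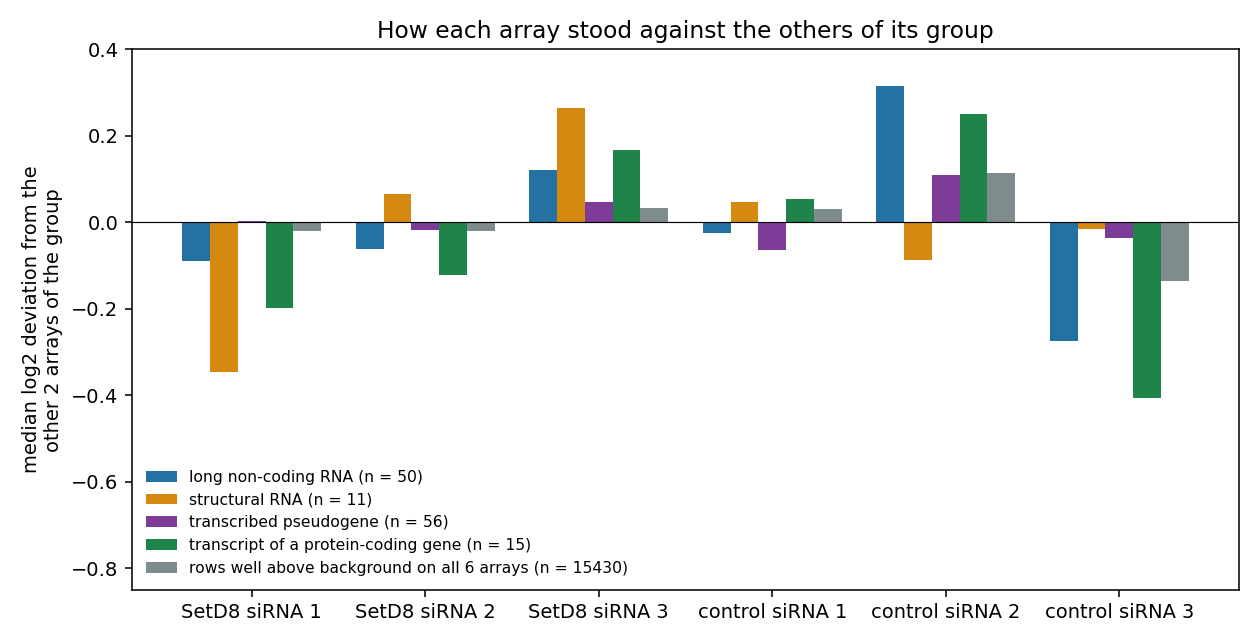
Median log2 deviation of each array from the mean of the other 2 arrays of its group, SetD8 siRNA arrays on the left and control siRNA arrays on the right; bars are locus types, and grey bars are the 15430 rows on all 6 arrays. Long non-coding RNAs stand at 0.32 on control array 2 and −0.28 on control array 3, and transcripts of protein-coding loci at 0.25 and −0.41.

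Transcribed pseudogenes made up 12 of the 19 members with an unadjusted p under 0.05. That is 21.4% of the 56 pseudogenes, against 15.8% of the 15162 rows on all 6 arrays in the same fit. Of such rows with a mean processed signal of at least 500 the share was 22.9%, and of dimmer ones 8.60%. The groups of 17 of the 56 did not overlap (6 higher, 11 lower), or 30.4%, against 25% of rows on all 6 arrays (13.3% higher, 11.7% lower). Their median difference was −0.10, −0.04 with slide as a block and −0.24 at the 75th percentile scaling. Gm13315 had the largest negative difference of the 136, with 9.93, 9.79 and 10.42 on the SetD8 arrays and 11.12, 11.50 and 11.57 on the control arrays. Every SetD8 array lay below every control array, and the difference was −1.35 ± 0.22 (2.54-fold lower, adjusted p = 0.0693 over all rows). It was −1.26 within slide 1, −1.14 within slide 3 and −1.55 at the 75th percentile scaling. Of its 60 bases, stretches of 26 and 21 recur without a break in 2 probes that carry no gene name, and those stood at −1.15 and −1.26. Its parent gene is not named in the files.

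Some members, many of them pseudogenes, share probe sequence or listed targets with other names on the array. For 24 members, 22 of them pseudogenes, a probe of another name lists their accession among its targets, and for 26 members the probe shares a run of at least 20 bases with a probe of another name, which for some long non-coding RNAs is another probe of the same locus. For 2 pseudogenes the member and parent probes are shown in pairs, with the longest shared run in capitals, because signal from the parent messenger RNA can reach such a probe. Hmgb1-rs17 lies on chr8:34595989-34596047, plus strand, and the Hmgb1 probe on chr5:149859991-149860050, minus strand, with 42 bases shared. LOC100042049, a Rpl22l1 pseudogene, lies on chr5:22034094-22034153, minus strand, and the Rpl22l1 probe on chr3:28706237-28706296, plus strand, with 54 bases shared (all mm9).
Hmgb1-rs17: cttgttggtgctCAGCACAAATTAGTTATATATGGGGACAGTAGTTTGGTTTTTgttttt
Hmgb1: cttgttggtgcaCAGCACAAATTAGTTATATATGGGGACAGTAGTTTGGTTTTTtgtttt
LOC100042049: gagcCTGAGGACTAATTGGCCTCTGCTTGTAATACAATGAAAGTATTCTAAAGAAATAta
Rpl22l1: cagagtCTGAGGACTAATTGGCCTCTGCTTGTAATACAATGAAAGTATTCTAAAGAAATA

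Hmgb1, which encodes an abundant chromatin protein that bends DNA, and its copies all had negative differences. Hmgb1-rs17 had 12.27, 11.88 and 12.21 on the SetD8 arrays and 12.66, 12.76 and 12.67 on the control arrays, a difference of −0.57 ± 0.14 (adjusted p = 0.177). Gm5176, whose accession is listed by an Hmgb1 probe, had 11.16, 11.35 and 11.33 on the SetD8 arrays and 11.96, 12.18 and 12.04 on the control arrays, a difference of −0.78 ± 0.12 (1.72-fold lower, adjusted p = 0.0702 over all rows). For both RNAs every SetD8 array was below every control array. Hmgb1 itself stood at −0.56 ± 0.13 on its representative probe (adjusted p = 0.149), and its 8 probes on all arrays ran from −0.97 to −0.27. The Hmgb1 probe printed above, which is not that representative probe, stood at −0.48.

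The Pisd pseudogenes were the matching case in the other direction. Pisd-ps1 had 12.13, 12.07 and 12.14 on the SetD8 arrays and 11.63, 11.56 and 11.43 on the control arrays, a difference of 0.57 ± 0.12 (adjusted p = 0.114 over all rows). Pisd-ps3 had 10.04, 9.91 and 9.62 on the SetD8 arrays and 9.33, 9.37 and 8.79 on the control arrays, a difference of 0.69 ± 0.20 (adjusted p = 0.240). Neither pair of groups overlapped. Each probe lists the accession of the other pseudogene, so they are not 2 separate measurements of 2 loci. Pisd, which encodes the mitochondrial enzyme that makes phosphatidylethanolamine, stood at 0.62 ± 0.17 (adjusted p = 0.214).

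In all, 13 members with a parent named in the files or by RefSeq could be set beside the parent's own row, and 0 of the parents passed. Tpt1p and LOC100316870 are among them, though without a RefSeq match they are not counted with the 56 pseudogenes. Vmn2r-ps14, which RefSeq now calls Smarca5-ps, stood at −0.57 and Smarca5, a chromatin remodelling ATPase, at −0.38. Tyms-ps stood at −0.55 and Tyms, thymidylate synthase, at −0.31, while Gm9855 (now Tdg-ps2) stood at −0.35 and Tdg, a DNA glycosylase, at −0.41. Tubb2a-ps2 stood at 0.03 and the tubulin gene Tubb2a at 0.85 (adjusted p = 0.0825), and Pdxk-ps at 0.02 and the kinase gene Pdxk at 0.97 (adjusted p = 0.223). The Pdxk value is that of its representative probe: its 3 probes on all arrays ran from 0.02 to 0.97, and the Pdxk probe that lists the accession of Pdxk-ps stood at 0.25. Hmga2-ps1 had 11.92, 11.74 and 11.37 on the SetD8 arrays and 10.96, 11.05 and 10.69 on the control arrays, a difference of 0.78 ± 0.19 (adjusted p = 0.159), and Hmga2 had no row to set beside it.

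**Figure D5:**
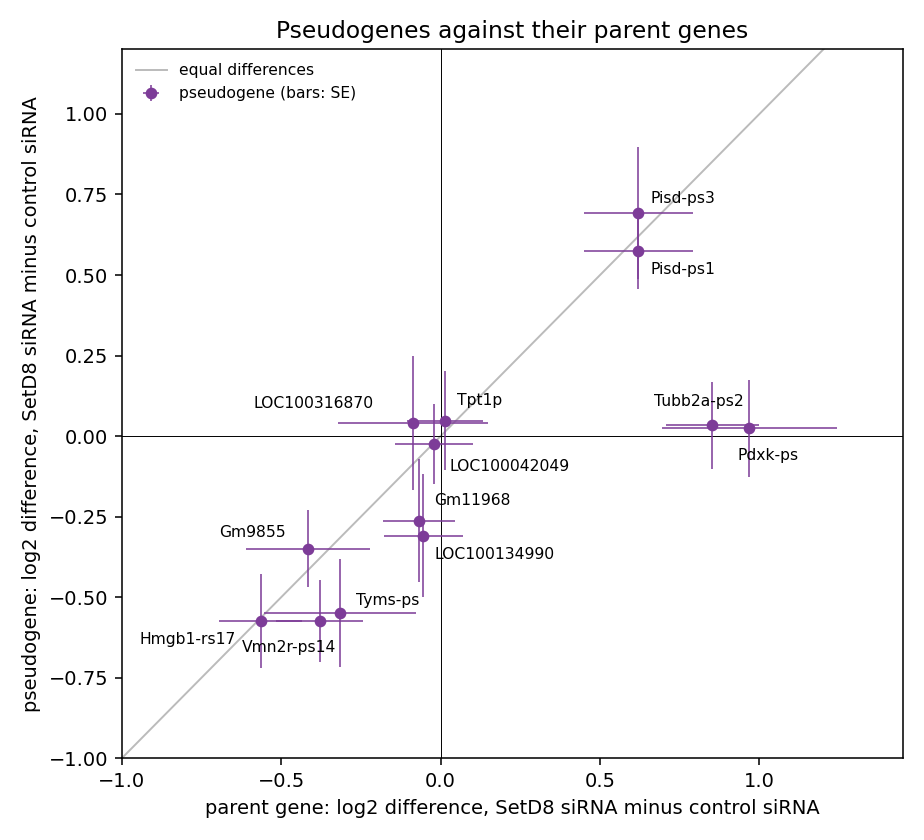
Log2 difference, SetD8 siRNA minus control siRNA, of 13 members with a named parent gene (vertical axis) against that of the parent (horizontal axis), with SE bars. All are drawn as pseudogenes, Tpt1p and LOC100316870, which have no RefSeq match, included. The grey line marks equal differences. Hmgb1-rs17 at −0.57 and the Pisd pseudogenes at 0.57 and 0.69 lie near the line, and Tubb2a-ps2 and Pdxk-ps lie far to its right.

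On their brightest probes, the pseudogenes with the highest signal had differences from −0.21 to 0.04. Gm8580 had 17.24, 17.17 and 17.21 on the SetD8 arrays and 17.20, 17.09 and 17.21 on the control arrays, a difference of 0.04 ± 0.11, and its probe shares a run of 26 bases with a probe of the ribosomal protein gene Rpl29. Gm12070 and Gm5523 stood at −0.19 and −0.15, and Gm6548 and Gm8709 at −0.01 and −0.21, with adjusted p from 0.669 to 0.988. For rows on all 6 arrays at log2 levels of 16 to 17, the 10th to 90th percentile was −0.18 to 0.14. Gm12070 and Gm8709 lay below it. At the 75th percentile scaling these 5 pseudogenes ran from −0.45 (Gm8709) to −0.05 (Gm8580), beside a median of −0.10 for rows on all 6 arrays. Gm12070 and Gm5523 belong to 5 members whose accession is listed by probes of the glycolytic gene Gapdh. Differences of the 5 listed by Gapdh probes ran from −0.27 to −0.13, and those of the Gapdh probes concerned from −0.49 to −0.19. Other probes of the same RNAs did not all follow: the probes on all arrays ran from −0.15 to 0.22 for Gm5523, from −0.47 to 0.16 for Gm6981, from −0.65 to −0.21 for Gm8709 and from −0.35 to −0.01 for Gm6548.

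Of 15 non-coding transcripts of protein-coding loci 3 had an unadjusted p under 0.05 (20%, against 15.8% of the 15162 rows on all 6 arrays). Zfp672, a zinc finger protein gene measured at a non-coding variant, had 9.55, 9.46 and 9.62 on the SetD8 arrays and 10.48, 10.13 and 10.46 on the control arrays. The groups were well apart, with a difference of −0.81 ± 0.14 (1.75-fold lower, adjusted p = 0.0851 over all rows), −0.97 within slide 1 and −0.84 within slide 3. Its other probe on all arrays stood at −0.35. Btbd19, a BTB domain gene, had 8.20, 8.20 and 8.73 on the SetD8 arrays and 7.66, 7.98 and 7.24 on the control arrays, a difference of 0.75 ± 0.24 (adjusted p = 0.283) that was 0.54 within slide 1 and 1.49 within slide 3.

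After normexp and quantile normalization brighter members had the smaller spread. The 51 members with a mean processed signal of at least 500 had a median residual SD of 0.16, and the 85 dimmer ones 0.25. At the 75th percentile scaling, where the median residual SD of the 136 was 0.47, brighter and dimmer members were not compared. Of the brighter members 19.6% had an unadjusted p under 0.05, against 22.9% of brighter rows on all 6 arrays; of the dimmer members 10.6% did, against 8.60% of dimmer rows. The non-coding names left out by the rule (Snhg names, Gas5 and Rik names) had 176 rows, a median difference of 0.00 and 0 calls.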

How the data were processed

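RNA of 6 arrays was measured. The authors deposited spot intensity on a linear scale from Agilent Feature Extraction 10.7.3.1, with mm9 probe positions, per the file headers; flags for well above background were used as deposited. The deposited series matrix holds the same intensity: 100% of its values lay within 0.006 of the processed signal. The submitters' processing notes name limma without a version; how the authors normalized between arrays is not given here. Control and outlier spots were left out and spots of a probe averaged, leaving 55681 probes; 0 columns of other samples were met.

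A pair of scalings was used: log2 of the processed signal minus each array's 75th percentile, and normexp (offset 50) of the mean signal with the local background median, then quantile normalization. Rows were 1 per array gene name, taken from the brightest probe that one of the groups had above background throughout (22126 rows). Tests were limma 3.58.1 in R 4.3.3 (lmFit, eBayes, two-sided), adjusted by Benjamini-Hochberg across all rows, and a threshold of 0.05, tested on simulated data. Scripts used Python 3.11.15, pandas 2.3.3, numpy 2.4.6 and matplotlib 3.10.9. The members, lists and tests were chosen with earlier results of these data known.

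Named were Setd8, the 4 largest differences in each direction whose groups did not overlap, the 8 brightest, 3 names on each side of the detection rule and a list of well-known non-coding RNAs, of which 9 were members; the members that passed in an alternative fit, and others so marked, were named after their values were seen. Alternatives were other background corrections, normalizations, filters, moderation, weights, replicate number or slide as a block, and each array left out.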

Additional observations from a re-analysis of the deposited data

How the results depend on the processing

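Counts of members called depended on the fit. At the 75th percentile scaling the count of 0 became 54 (22 higher, 32 lower) with array weights. Their estimation did not converge, and they called 36.1% of all rows. The count became 2 with only rows on all 6 arrays (Pvt1, Gm13315, 0.661% of those rows called). It became 1 with slide as a block (Pvt1, 0.479% of all rows called). With both it became 2 (Pvt1, Btbd19), beside 265 of 15430 rows. Leaving out single arrays gave 0 to 1, the 1 without control array 2 beside 114 of 22126 rows. After normexp and quantile normalization the count of 0 became 29 with array weights (21.3% of all rows called). It became 7 with trend and robust moderation (2 higher, 5 lower, 3.31% of all rows called). With only rows on all 6 arrays it became 5 (2.72% of those rows called). With slide as a block added to that it became 1 (95 of 15430 rows called). Leaving out single arrays gave 0 with all rows. With rows on all 6 arrays it gave 0 to 9, beside 5 to 905 of the 15430 rows. Fits limited to those rows with slide or single arrays were added after seeing the data. The causes were not tested. The median of the members was 0.0076 with slide as a block and −0.11 to 0.010 when single arrays were left out. The positive value came without control array 2, which slide as a block also leaves out of the difference. For Setd8 the difference was −2.10 with the series matrix values and −2.04 with slide as a block, neither past the threshold, and −2.18 to −2.0005 without single arrays, past it only without control array 2 or 3.

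The replicate numbers did not pair the arrays, since same-numbered arrays correlated at 0.15, −0.27 and −0.27 in their deviations. With the replicate block 0 members were called in either scaling, and also 0 with rows on all 6 arrays; the block left the members' median at −0.07 and Setd8 at −2.07, with an adjusted p of 0.277.

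Of 23 named RNAs 6 turned sign in some setting, all of them near 0. With slide as a block Rn18s stood at 0.053, Gm6548 at 0.0100 and Dleu2 at 0.014. At the 75th percentile scaling and with normexp and the 75th percentile, Gm8580 stood at −0.053 and −0.18, and Tug1 at −0.12 and −0.10. Without single arrays Rn18s ran from −0.056 to 0.042, Gm6548 from −0.13 to 0.062, Tug1 from −0.16 to 0.23, Dleu2 from −0.31 to 0.044 and Terc from −0.077 to 0.23.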
